A study of Mus musculus with 2 samples.

Results

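Type I interferon stimulated genes were examined in the immune cells of mouse skin. The set is a list of 48 genes that cells switch on when type I interferon reaches its receptor, and a gene was taken as measured when it had at least 20 unique molecular identifiers (UMIs, each standing for 1 captured transcript) in the whole matrix. By this rule 46 of the 48 genes were measured, out of 32285 genes in the matrix, with totals from 789 UMIs for Ifit3b to 123490 UMIs for Ifi27l2a. Mx1 and Mx2 were not analysed here.

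Single-cell RNA profiles came from CD45+ leukocytes sorted from full-thickness skin after digestion with Liberase TM. One group was control skin at day 0. The other was skin at day 2 of DPCP, diphenylcyclopropenone, a hapten that elicits contact hypersensitivity. Each group was 1 multiplexing tag in 1 shared 10x 3' library, so there were no replicates, and the strain, sex, age, skin site, dose and number of mice behind each tag are not given in the sources used here. No test between the groups was possible, and differences between tags, mice and treatment cannot be told apart. The control group held 6280 barcodes and 54397154 UMIs, and the DPCP group 7866 barcodes and 53748585 UMIs. After filtering, 4967 control cells with a median of 8797 UMIs and 7588 DPCP cells with a median of 4728.5 UMIs remained. Of the control barcodes 20.8% exceeded 10% mitochondrial UMIs, against 3.53% of the DPCP barcodes. No barcode was shared by the groups, but 37.7% of kept DPCP cells and 0% of control cells had under 80% of their tag UMIs from their own tag.

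Cells were grouped into classes by clustering without the interferon stimulated genes and naming clusters from marker lists. Neutrophil-like cells numbered 108 in control and 4798 after DPCP, which was 63.2% of DPCP cells, and monocyte-like cells (Vcan, Chil3, Plac8, Hp) numbered 209 and 755. Cluster 5, with 714 control and 155 DPCP cells, expressed 9 of 10 macrophage markers, among them C1qa, Mrc1 and Folr2, yet its leading gene was the monocyte marker Ly6c2, so it is called by its number. Siglec1 and Irf7, both genes of the set, were also among its 10 leading genes although neither was used to form it. Genes of other interferon-inducible families were not withheld from this clustering, so the cluster was not formed independently of such genes. Cluster 11 (C1qa, Pf4, Folr2) was macrophage-like throughout. Clusters 2 and 3, the largest control groups with 1171 and 1059 cells, passed for no class, and neither did cluster 15 (Ace, Cd300e, Treml4). The conventional dendritic cell type 1-like cluster was led by the cell cycle genes Top2a, Stmn1 and Mki67.

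Type I interferons signal through the receptor IFNAR1 and IFNAR2 and the kinases JAK1 and TYK2 to a transcription complex that contains STAT2 and IRF9 and binds interferon-sensitive response elements in the promoters of its target genes. The induced proteins sense viral nucleic acid, block translation, degrade RNA, trap virions and restrain the signal itself, and IRF7 feeds forward to further interferon transcription. A low level of this programme is present in many tissues without infection, and skin immune cells are among those that display it.

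The core of the response element is 2 GAAA repeats spaced by 2 bases, GAAANNGAAA. RefSeq promoters of build GRCm38.p6 (mm10), from 250 bases before to 50 after the start, were matched for 36 of the 46 genes, with 43 windows. The letters GAAANNGAAA stood on either strand in 53.5% of these windows, against 3.44% of the 32851 windows of all genes. By gene the shares were 58.3% of 36 genes and 3.99% of 27025 genes. At least 2 copies were found in 13.95% of the windows of the set and 0.225% of all windows. With a spacing of 1 or 3 bases between the GAAA repeats in place of 2, the shares in the set were 23.3% and 18.6%, against 3.17% and 2.75% of all windows. The 4 promoters with the most copies are printed 5′ to 3′ on the gene's strand over the 250 bases before the RefSeq start, with the copies in capitals, because they show how densely the element can be packed. They lie at chr4:156200819-156201068 (Isg15, minus strand), chr8:71537473-71537722 (Bst2, minus strand), chr5:120907526-120907775 (Oas1a, minus strand) and chr19:34640639-34640888 (Ifit1, plus strand).
Isg15: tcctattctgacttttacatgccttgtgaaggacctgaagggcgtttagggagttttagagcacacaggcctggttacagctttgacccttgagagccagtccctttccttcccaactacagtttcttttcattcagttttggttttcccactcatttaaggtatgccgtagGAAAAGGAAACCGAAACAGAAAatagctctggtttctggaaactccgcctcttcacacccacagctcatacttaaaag
Bst2: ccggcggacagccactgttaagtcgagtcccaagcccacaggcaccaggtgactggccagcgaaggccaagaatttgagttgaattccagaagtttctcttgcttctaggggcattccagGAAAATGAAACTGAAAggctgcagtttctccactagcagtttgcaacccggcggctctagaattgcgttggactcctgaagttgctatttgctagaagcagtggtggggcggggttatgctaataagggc
Oas1a: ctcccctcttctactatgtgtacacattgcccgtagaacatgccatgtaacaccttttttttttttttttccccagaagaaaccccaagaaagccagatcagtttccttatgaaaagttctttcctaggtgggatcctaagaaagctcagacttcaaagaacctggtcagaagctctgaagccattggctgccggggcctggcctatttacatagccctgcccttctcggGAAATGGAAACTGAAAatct
Ifit1: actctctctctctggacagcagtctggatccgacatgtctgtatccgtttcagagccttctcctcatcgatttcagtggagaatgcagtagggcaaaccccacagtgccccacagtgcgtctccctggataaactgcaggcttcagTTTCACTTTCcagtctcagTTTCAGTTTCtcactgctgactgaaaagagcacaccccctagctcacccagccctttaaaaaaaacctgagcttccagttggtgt
Isg15 held 3 copies, which began 78, 72 and 66 bases before the start and overlapped, since the second repeat of one copy is the first of the next. Bst2 held copies at -130 and -124 and Oas1a at -20 and -14, overlapping in the same manner. In Ifit1 the copies at -104 and -85 were separate and read on the opposite strand, so that they appear as TTTC repeats. A match describes letters in a window and not a bound site. Genes with and without the letters had like values in cluster 5, the cells where the set was most abundant. Its 21 genes with a match had a median log2 ratio of DPCP to control of -1.47, and the 15 without a match had -1.38. In other classes the medians with and without a match were further apart, at -0.63 (14 genes) and -0.0706 (7 genes) in cluster 15, 0.19 (14 genes) and 0.67 (9 genes) in Langerhans cell-like cells, and -0.30 (20 genes) and -0.0033 (14 genes) in neutrophil-like cells.

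Control skin was examined first, to see which classes carried the signal at rest. Levels are UMIs of a gene per 1000000 UMIs of the summed cells of a class (CPM), and intervals are 95% exact intervals that cover counting error only. The summed level of the 46 genes was 16396 CPM (16297 to 16496) in cluster 5, and 8076 CPM in the next class, monocyte-like cells. Macrophage-like cluster 11 followed at 6284 CPM, conventional dendritic cell type 1-like cells at 5315 CPM and neutrophil-like cells at 5152 CPM. Type 2-like dendritic cells held 4624 CPM, cluster 3 held 4233 CPM, group 2 innate lymphoid cell-like cells 4076 CPM and cluster 15 3790 CPM. At the low end were the epidermal gamma-delta T cells with 3118 CPM, T cell-like cells with 3098 CPM, cluster 2 at 2759 CPM, Langerhans cell-like cells at 2145 CPM and mature dendritic cell-like cells at 2083 CPM. Neighbours in this order were close: the intervals of the 2 T cell classes overlapped, as did those of Langerhans cell-like (2034 to 2260 CPM) and mature dendritic cell-like cells (1979 to 2191 CPM).

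Cluster 5 held 12.3% of the control UMIs of all genes but 36.6% of the UMIs of the interferon stimulated genes. Without Ifi27l2a, by far the most abundant of them, its share was 37.8%. The share of the set in cluster 5 was thus about as large with that gene as without it. The order of other classes did depend on Ifi27l2a. Without it cluster 3 was at 2276 CPM, below cluster 15 (2775 CPM) and group 2 innate lymphoid cell-like cells (3144 CPM).

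**Figure D1:**
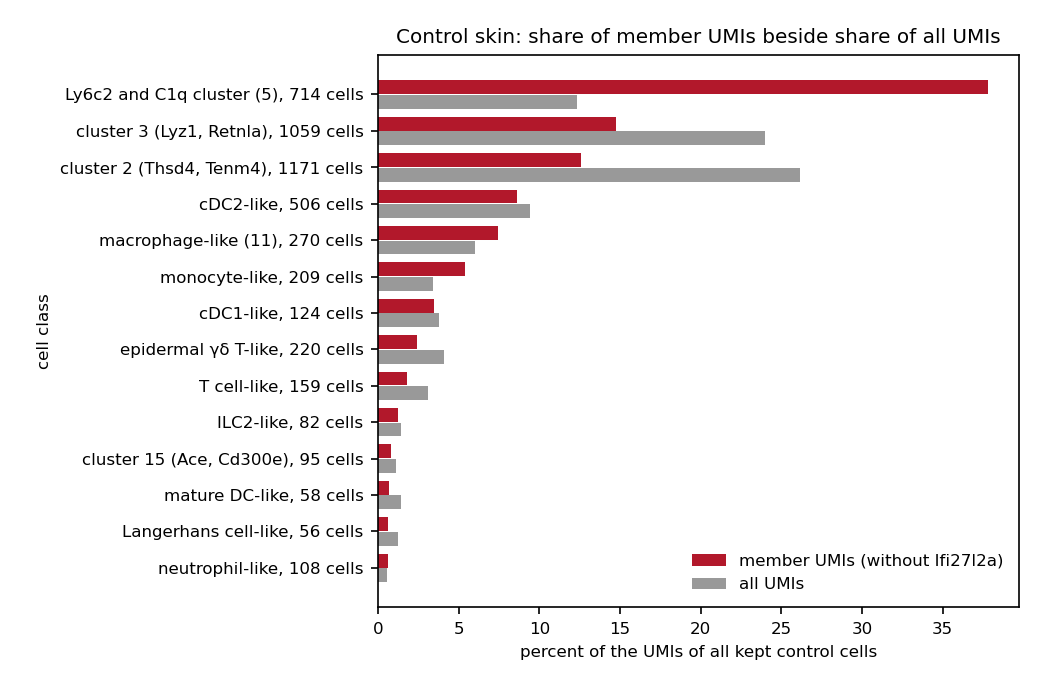
Share of the UMIs of the 45 interferon stimulated genes other than Ifi27l2a (percent of all such UMIs in kept control cells) beside the share of all UMIs, for each class of control cells. Cluster 5 holds 37.8% of the former and 12.3% of the latter.

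Gene by gene, a level was called higher or lower in a class when it differed at least 1.5-fold from the level in all other control cells, among 12737 genes with at least 50 UMIs. In cluster 5 all 46 genes were higher, while 10.2% of all genes were, and the median log2 difference was 2.03 against -0.12 for all genes. In monocyte-like cells 23 of 46 were higher and 0 lower (11% of all genes higher), with a median of 0.57. That call rested on how the class was drawn: gating of single cells on their markers left 1 gene higher and a median of -0.0168, clustering with the set gave 12 higher and 6 lower (median 0.19), and clustering without other interferon-inducible families gave 46 higher (median 1.64). The share of all genes was not counted under these settings. In cluster 11 there were 9 higher and 1 lower (7.5% of all genes higher), with a median of 0.25. These were the 3 classes with a median above 0.

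The other classes lay below the rest of control skin. In conventional dendritic cell type 1-like cells 11 of 46 genes were lower (19.5% of all genes), in type 2-like cells also 11 (19.4%) and in innate lymphoid cell-like cells 14 (19%), which are shares close to or not far above the background. Cluster 15 had 22 lower (23.9% of all genes) and cluster 3 had 33 lower (29.7%). Among T cell-like cells 34 genes were lower (19.2% of all genes) and among epidermal gamma-delta T cell-like cells 35 (19%). The largest numbers were 42 in cluster 2 (20% of all genes) and 37 in Langerhans cell-like cells (21.1%). In mature dendritic cell-like cells 34 of 46 were lower (34.7% of all genes), with a median of -1.66 against -0.20 for all genes. Neutrophil-like cells were split, with 14 genes higher (20.8% of all genes) and 24 lower (35.5%), and they were summed from 108 cells only.

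Because cluster 5 weighs so heavily in the reference, each class was also set against the other control cells without cluster 5, a choice made after seeing the data. Monocyte-like cells then had a median log2 difference of 1.17 and cluster 11 one of 0.91. The median changed sign in 3 classes: dendritic cell type 1-like cells moved from -0.14 to 0.32, type 2-like cells from -0.24 to 0.33 and innate lymphoid cell-like cells from -0.29 to 0.26. T cell-like cells (-0.48), Langerhans cell-like cells (-0.85), cluster 2 (-0.85) and mature dendritic cell-like cells (-0.95) stayed below 0.

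**Figure D2:**
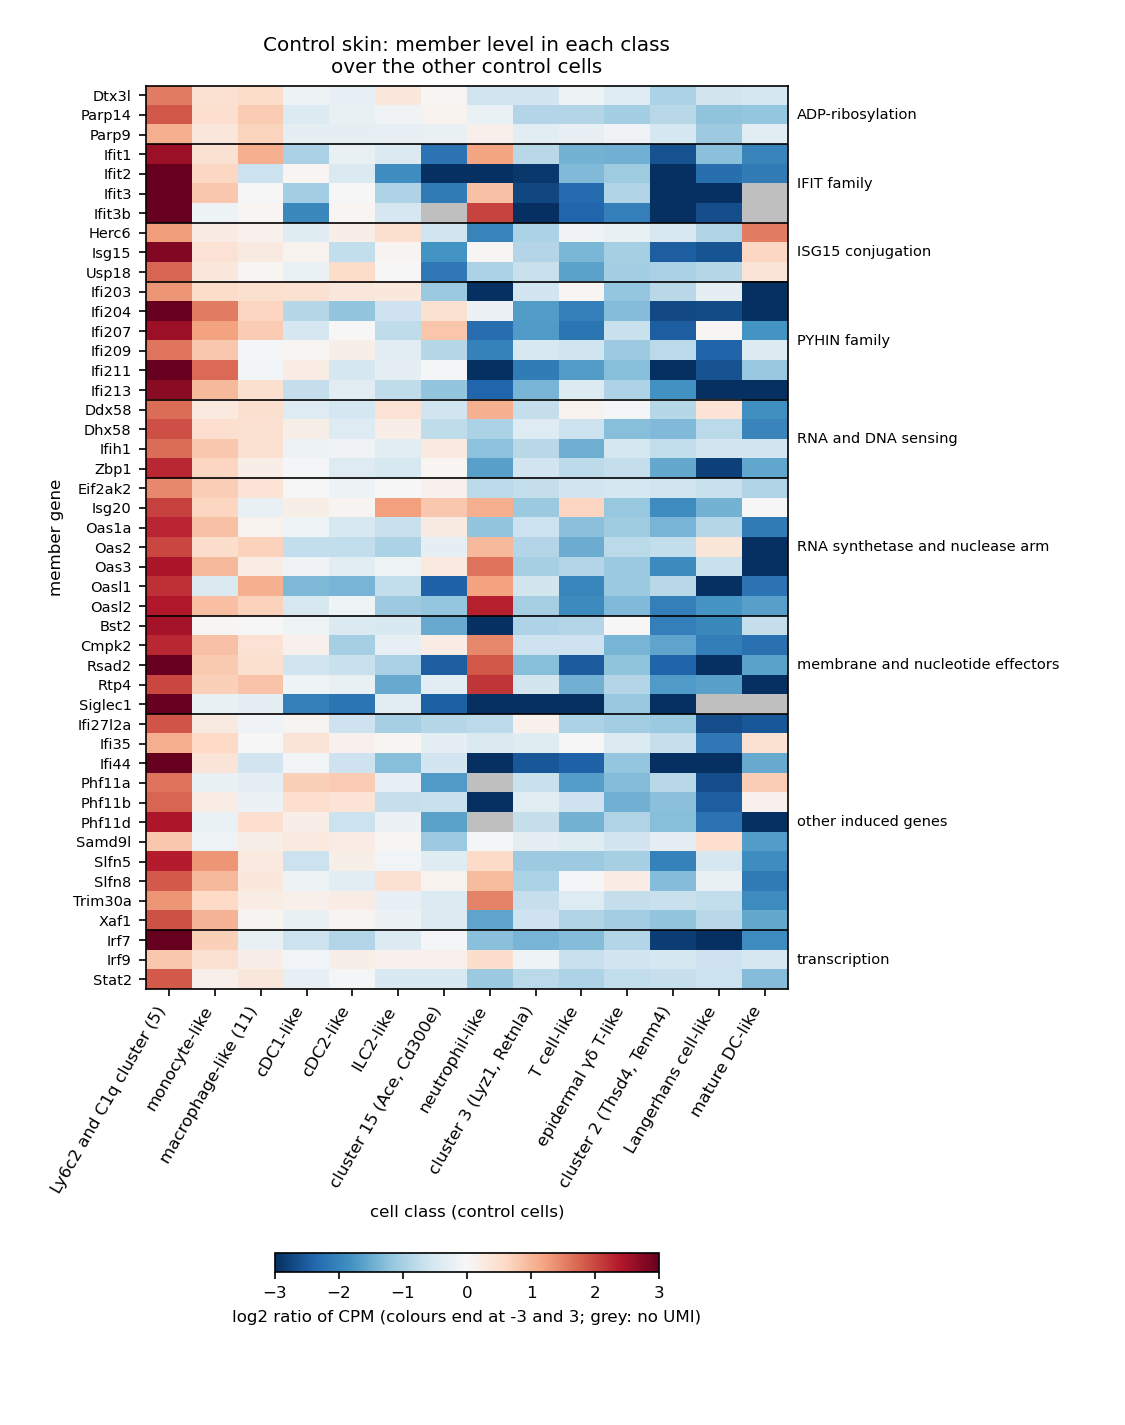
Log2 ratio of the level of each of 46 interferon stimulated genes (rows, grouped by role) in a class of control cells (columns) to the level in all other control cells; colours end at -3 and 3, and grey marks no UMI. The cluster 5 column is above 0 for every gene. In neutrophil-like cells 5 of 6 PYHIN genes are lower at 1.5-fold, while the IFIT genes and several other roles hold both directions.

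The boundary of cluster 5 depended on the clustering. When 274 genes of other interferon-inducible families were also withheld from clustering, a choice made after seeing the data, 68.9% of its control cells joined the monocyte-like class and 29.8% stayed. When each cell was gated on its own markers, 73.4% were monocyte-like and 21.3% macrophage-like. Summed as 1 class, monocyte-like cells and cluster 5 had 923 control cells and a median log2 difference of 1.93 from the other control cells. That median was between 1.88 and 2.04 under 5 other clusterings.

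The transcription factors of the pathway showed how uneven the pattern was within 1 role. Irf7, the regulator that amplifies interferon transcription, stood at 551 CPM in control cluster 5, 185 CPM in monocyte-like cells, 119 CPM in plasmacytoid dendritic cell-like cells (21 cells) and 9.21 CPM in Langerhans cell-like cells. Irf9, the DNA-binding partner of STAT2, differed least of all 46 genes in cluster 5, with 101 CPM, 1.75-fold (1.60 to 1.91) above the other control cells. Stat2 was at 324 CPM there, 3.60-fold above.

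The membrane and nucleotide effectors held the gene most restricted to cluster 5. Siglec1, the sialic acid-binding lectin CD169 of macrophages, was at 190 CPM, 32.3-fold (28.3 to 37.1) above the other control cells. Monocyte-like cells had 24.5 CPM, cluster 11 had 23.8 CPM, cluster 2 had 1.03 CPM, and no UMI was found in Langerhans cell-like or mature dendritic cell-like cells. Siglec1 UMIs were found in 57.1% of control cluster 5 cells (53.4 to 60.8%; median 7898.5 UMIs a cell). In T cell-like cells, which should lack the gene, the share was 1.26% (median 7487 UMIs). Rsad2, the antiviral enzyme viperin, was at 248 CPM in cluster 5, 208 CPM in neutrophil-like and 98 CPM in monocyte-like cells. Bst2, the tetherin that holds budding virions, was highest in plasmacytoid dendritic cell-like cells, at 1537 CPM, where it is a known surface marker. Cluster 5 had 750 CPM and monocyte-like cells 217 CPM. Neutrophil-like cells had 24.3 CPM, the lowest level of the 14 classes compared.

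The 4 IFIT genes, whose proteins bind viral RNA, were all higher in cluster 5, while 3 were higher in neutrophil-like cells, 2 in monocyte-like cells, 1 in cluster 11 and 0 in each other class compared. Ifit3b was at 53.2 CPM and Ifit2 at 162 CPM in cluster 5, each 15.7-fold above the other control cells. Ifit3 was at 157 CPM (12.3-fold) and Ifit1 at 120 CPM (5.96-fold). Near-identical sequence of Ifit3 and Ifit3b means that counts may be split uncertainly between them. Phf11a, Phf11b and Phf11d, the Oas and Slfn genes and the PYHIN genes also belong to families of related genes. How far counts were split uncertainly within these families was not checked.

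The PYHIN genes encode DNA-binding proteins of the p200 family. They set monocyte-like cells apart from neutrophil-like cells in control skin. Ifi211 was at 463 CPM in cluster 5, 308 CPM in monocyte-like cells (3.25-fold above the other control cells, 2.97 to 3.55) and 10.4 CPM in neutrophil-like cells. Ifi204 was at 596 CPM, 378 CPM (2.95-fold) and 122 CPM in these classes. In neutrophil-like cells 5 of 6 PYHIN genes were lower and 0 higher, while in monocyte-like cells 5 of 6 were higher.

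The RNA synthetase and nuclease arm ran mostly the other way in neutrophil-like cells, with 5 of 7 genes higher and 2 lower. Oasl2, a member of the oligoadenylate synthetase family, was higher in them than in cluster 5, at 583 against 410 CPM, and 5.02-fold (4.28 to 5.86) above the other control cells. Rtp4, an induced inhibitor of flavivirus replication, followed the same order with 264 and 178 CPM, and so did Trim30a, a TRIM protein that restrains innate signalling, with 687 and 519 CPM. Each of these 3 genes was highest in neutrophil-like cells. Of the remaining 43 genes, 42 were highest in cluster 5 among the 14 classes compared, which had at least 50 control cells and did not include cluster 14. Herc6, which attaches ISG15 to proteins, was highest in mature dendritic cell-like cells at 194 CPM (2.88-fold, 2.41 to 3.41).

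Single genes stood out from the low level of other classes. In cluster 11 the highest ratios were those of Ifit1 at 64.5 CPM (2.11-fold), Oasl1 at 74.5 CPM (2.09-fold) and Rtp4 at 106 CPM (1.82-fold). Mature dendritic cell-like cells had Isg15, the ubiquitin-like protein of the response, at 140 CPM (1.55-fold) and Phf11a at 47.0 CPM (1.66-fold). Phf11a led in both conventional dendritic cell classes, at 46.1 CPM (1.65-fold) in type 1-like and 45.4 CPM (1.69-fold) in type 2-like cells. In type 1-like cells it was followed by Phf11b (118 CPM) and Ifi203 (288 CPM), and in type 2-like cells by Usp18 (66.0 CPM) and Phf11b (108 CPM).

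Langerhans cell-like cells were led by Samd9l, a restriction factor, at 212 CPM (1.43-fold, 1.2 to 1.69), then the RNA sensor gene Ddx58 (84.4 CPM) and Oas2 (59.9 CPM). Isg20, an RNA exonuclease, led in T cell-like cells at 12.5 CPM (1.56-fold, 0.941 to 2.44), with Ddx58 (68.8 CPM) and Ifi203 (223 CPM) next. Isg20 also led in innate lymphoid cell-like cells at 18.9 CPM (2.35-fold, 1.28 to 4.0), with Herc6 (95.7 CPM) and Slfn8 (80.8 CPM) next. In epidermal gamma-delta T cell-like cells the first were Slfn8 (69.2 CPM, 1.17-fold), Bst2 (213 CPM) and Ddx58 (62.0 CPM). Several of these intervals included 1.

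Among the unnamed clusters, cluster 15 had Ifi207 at 207 CPM (1.77-fold, 1.46 to 2.13), Isg20 at 14.2 CPM from 8 UMIs and Ifi204 at 188 CPM. In cluster 2 even the first 3 genes, Samd9l (130 CPM), Herc6 (53.6 CPM) and Parp9 (61.0 CPM), were below the other control cells. Cluster 3 had Ifi27l2a at 1958 CPM (1.09-fold), Irf9 at 58.7 CPM and Samd9l at 129 CPM.

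DPCP skin was then set beside control skin. Over all cells Ifi27l2a (chr12:103442167-103443680), a small hydrophobic protein of the IFI27 family, was at 1839 CPM in control and 507 CPM after DPCP. Bst2 (chr8:71534255-71537456) went from 209 to 87.8 CPM, Ifi203 (chr1:173920407-173942672) from 214 to 78.8 CPM and Ifi209 (chr1:173630917-173647928) from 169 to 83.9 CPM. Others were higher: Trim30a (chr7:104409025-104465193) went from 246 to 391 CPM and Oasl2 (chr5:114896936-114912234) from 119 to 199 CPM. Among the classes compared in control skin, both had been highest in neutrophil-like cells, the class that made up most of the DPCP sample. How far the number of these cells contributed was not tested. The remaining abundant genes differed by less. Slfn5 (chr11:82951349-82964840) had 210 and 180 CPM, Ifi204 (chr1:173747293-173766943) 136 and 143 CPM, and Ifi207 (chr1:173723427-173741747) 118 and 141 CPM. Parp14 (chr16:35832874-35871544), an ADP-ribosyltransferase, had 144 and 130 CPM, Samd9l (chr6:3372257-3399572) 149 and 118 CPM, and Isg15 (chr4:156199424-156200818) 91.0 and 107 CPM. Values over all cells mix the change in cell types with the change within them, so the classes were compared one by one.

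The summed level of the set was lower after DPCP in the myeloid classes with most of it. It was 16396 CPM in control and 5485 CPM after DPCP in cluster 5, 8076 and 4484 CPM in monocyte-like cells, 6284 and 4169 CPM in cluster 11, and 5152 and 3444 CPM in neutrophil-like cells. Without Ifi27l2a the sum was 11307 and 4518 CPM in cluster 5 and 5875 and 3483 CPM in monocyte-like cells. In cluster 11 it was then 4563 and 3407 CPM, and in neutrophil-like cells 4086 and 3187 CPM. Nearly all control neutrophils (105 of 108) lay in cluster 1, where the sum of the whole set was 5077 CPM in control and 4651 CPM after DPCP. Ifi27l2a alone went from 1104 to 393 CPM there, a larger fall than that of the sum. In Langerhans cell-like cells the sum was 2145 CPM in control and 2500 CPM after DPCP. After DPCP the neutrophil-like class held 39.4% of the UMIs of the set, monocyte-like cells 21.5% and cluster 5 4.91%.

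For single genes, DPCP over control was called at 1.5-fold among genes with at least 50 UMIs in the class. In cluster 5, 41 of 46 were lower and 0 higher, against 10.4% of all genes lower and 11.7% higher, and the median log2 ratio was -1.37 (0.05 for all genes). In monocyte-like cells 30 of 45 were lower and 0 higher (11.1% and 10.1% of all genes), with a median of -0.87 (all genes -0.03). With single cells gated, 20 of 46 were lower and 2 higher in that class, with a median of -0.29, and the share of all genes was not counted. In cluster 11, 21 of 44 were lower and 1 higher (8.28% and 8.86%), with a median of -0.52. In cluster 3, 15 of 44 were lower and 1 higher (8.72% and 9.13%), with a median of -0.34. Cluster 15 had 9 of 26 lower and 0 higher (7.62% and 6.72%), with a median of -0.30. The set was thus lower after DPCP, beyond the share of all genes, in each of these 5 groups of cells.

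The remaining classes had genes in both directions. Type 2-like dendritic cells had 9 of 45 lower and 4 higher (12.3% and 9.9% of all genes; median -0.21), and T cell-like cells 5 of 32 lower and 2 higher (9.85% and 10.2%; median -0.20). Neutrophil-like cells had 13 of 43 lower and 7 higher (27.8% and 18%; median -0.16), which is near the background in both directions. Epidermal gamma-delta T cell-like cells had 10 of 38 lower and 3 higher (11.5% and 13.4%; median -0.08). Mature dendritic cell-like cells had 5 of 26 lower and 4 higher (10.7% and 21.1%; median -0.02). Cluster 2 had 2 of 42 lower and 7 higher (11.9% and 7.3%; median 0.20). Langerhans cell-like cells had 5 of 30 lower and 15 higher (17.7% and 25.3%), with a median of 0.58 against 0.10 for all genes. Genes entered on the UMIs of both groups together, and this class had 651303 UMIs in control and 1850504 after DPCP. A gene low in control thus entered more easily when it was higher after DPCP. All genes passed the same filter, but how far it raised the median of the set was not tested. Other scaling shifted some of these splits. With the mean of CPM over cells there were 10 higher and 4 lower in T cell-like cells, 5 higher and 11 lower in the epidermal T cells and 4 higher and 3 lower in cluster 2, and with TMM scaling there were 2 higher and 5 lower in mature dendritic cell-like cells and 1 higher and 12 lower in the epidermal T cells. The clustering mattered as well. At Leiden resolution 2, 27 of 43 genes were lower and 1 higher in type 2-like dendritic cells (median -0.84), and with no filter on cells 19 of 45 were lower and 1 higher, while gating of single cells gave a median of 0.0786. In T cell-like cells 19 of 38 were lower and 0 higher when other interferon-inducible families were withheld from clustering (median -0.59), and 3 of 25 lower and 9 higher when single cells were gated (median 0.34). No direction is therefore given for these 2 classes. Shares of all genes were counted under the main setting only, so counts under the other settings have no background beside them.

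**Figure D3:**
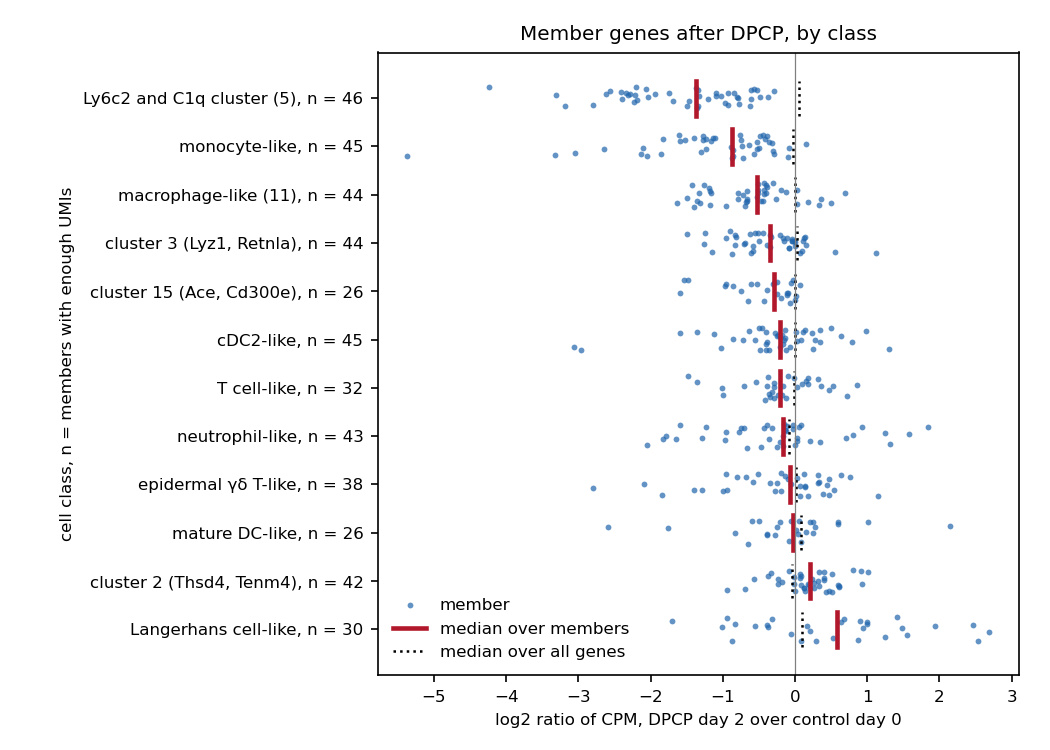
Log2 ratio of DPCP to control for each interferon stimulated gene (points) in each class, with the median of the set (red line) and of all genes (dotted line). The median of the set is -1.37 in cluster 5, -0.87 in monocyte-like cells and 0.58 in Langerhans cell-like cells.

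RNA of neutrophils was found in other classes of the DPCP sample, and how far it contributed to these comparisons was not tested. Cells with over 20 UMIs of S100a8 and S100a9 together made up 28.2% of epidermal gamma-delta T cell-like, 23.1% of T cell-like, 19.7% of mature dendritic cell-like and 14.5% of Langerhans cell-like cells after DPCP, but 9.18% in cluster 11, 6.89% in monocyte-like cells and 5.16% in cluster 5. In control the share was at most 1.85% in each of these classes. Without such cells the median of the set was -1.41 in cluster 5, 0.52 in Langerhans cell-like cells, -0.0587 in the epidermal T cells, -0.29 in T cell-like cells (1 higher, 7 lower) and -0.15 in mature dendritic cell-like cells (2 higher, 3 lower). Shares of all genes were not counted without these cells.

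The DPCP cells of cluster 5 were less firmly placed than its control cells. Without doublet removal, 69.7% of its 155 DPCP cells fell in cluster 11 and 26.5% stayed, and at Leiden resolution 2 the shares were 70.3% and 12.3%, so that under both settings too few DPCP cells stayed for a comparison. Cluster 5 and the monocyte-like class summed as 1 had 923 control and 910 DPCP cells, a member sum of 14604 CPM in control and 4642 CPM after DPCP, and a median log2 ratio of -1.57 (all genes -0.02). That median was between -1.58 and -1.40 under 5 other clusterings. With cluster 11 added as well it was -1.37, and between -1.42 and -1.28 under 3 other clusterings. The direction in these cells together was the same under each of these clusterings. The mix of cells differed between the groups, with 714 cluster 5 and 209 monocyte-like cells in control, and 155 and 755 after DPCP. Ratios of the sum thus mix the change in cell types with the change within them. The median of -1.57 was below those of cluster 5 (-1.37) and of monocyte-like cells (-0.87) alone.

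Within this summed class the ratios of DPCP to control ranged from 0.0157 for Ifi44 to 0.825 for Irf9. These ratios of single genes also mix the change in cell types with the change within them, and their intervals cover counting error only. For Ifi44 the ratio of the sum was lower than in either of its parts alone. Ifi44, an induced antiproliferative protein, was at 179 CPM in control and 2.81 CPM after DPCP (ratio 0.0157, 0.0106 to 0.0225). Ifit3b had 43.6 and 1.41 CPM, Ifit2 137 and 10.2 CPM, and Rsad2 216 and 16.7 CPM. Siglec1 had 155 and 13.2 CPM (ratio 0.0856, 0.0714 to 0.102). At the other end Irf9 had 97.6 and 80.5 CPM and Ifi207 397 and 292 CPM (ratio 0.736, 0.700 to 0.773).

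**Figure D4:**
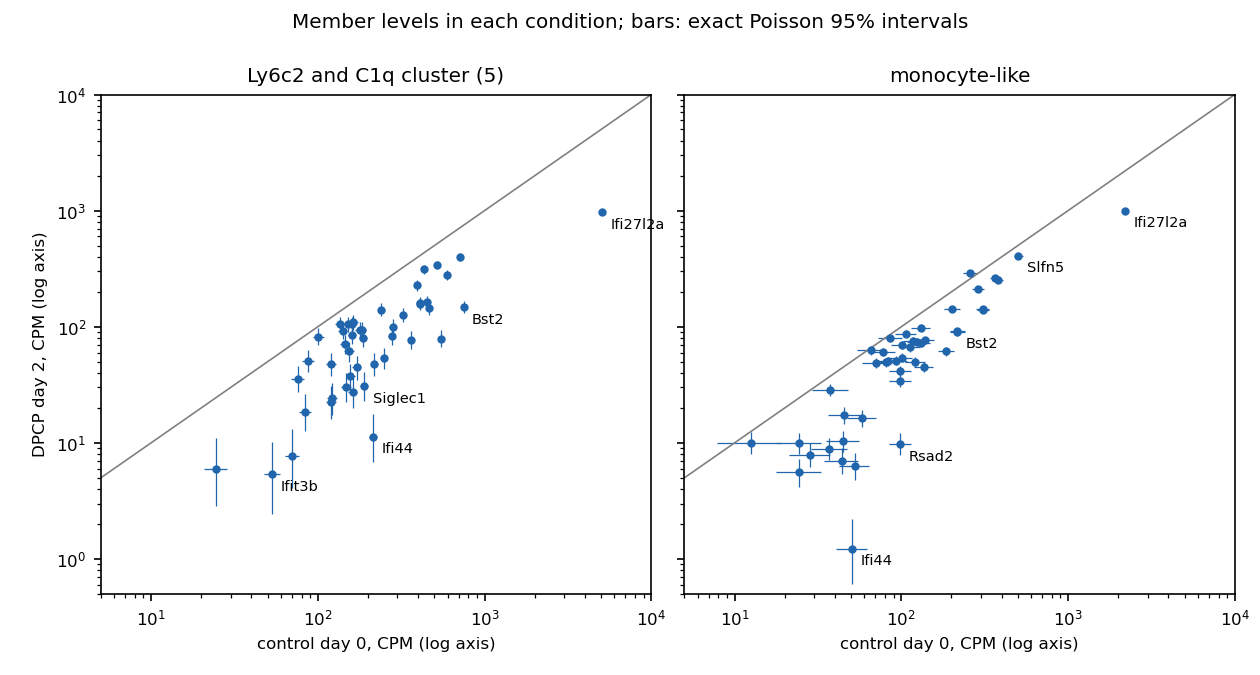
Level of each interferon stimulated gene in control (horizontal axis) and DPCP cells (vertical axis), both in CPM on log axes, in cluster 5 and in monocyte-like cells, with 95% Poisson bars. Nearly all points lie below the line of equal levels, Ifi44 farthest (214.5 and 11.3 CPM in cluster 5, 50.7 and 1.22 CPM in monocyte-like cells).

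By role, the IFIT genes, the ISG15 arm and the membrane effectors had the lowest medians in cluster 5. There the median log2 ratio was -2.31 over 4 IFIT genes, -2.24 over Isg15, Usp18 and Herc6, and -2.21 over 5 membrane and nucleotide effectors, and all 12 were lower. The largest role, 11 other induced genes such as Ifi44, Ifi27l2a and the Phf11 genes, had -1.03 with all 11 lower, and its values ran from -4.25 to -0.61. The median was -1.42 over 6 PYHIN genes (5 lower), -1.36 over 7 genes of the synthetase and nuclease arm (5 lower) and -1.35 over 3 transcription factors (2 lower). The 4 nucleic acid sensors had -1.03 (4 lower), and Parp9, Parp14 and Dtx3l, which act in ADP-ribosylation, had -0.80 (2 lower).

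Among single genes of cluster 5, Ifi44 had 214.5 CPM in control and 11.3 CPM after DPCP (ratio 0.0527, 0.0317 to 0.0827). Ifit3b had 53.2 and 5.36 CPM and Phf11a 70.4 and 7.74 CPM. Irf7 went from 551 to 79.2 CPM (ratio 0.144, 0.120 to 0.171), Isg15 from 362 to 76.8 CPM and Bst2 from 750 to 148 CPM. The ratios nearest to 1 were those of Irf9 with 101 and 82.2 CPM (0.814), Oas2 with 136 and 105 CPM (0.772) and Ifi207 with 435 and 311 CPM (0.716). Monocyte-like cells shared both ends of this order. Ifi44 was at 50.7 and 1.22 CPM (ratio 0.0241, 0.0116 to 0.0453), Rsad2 at 98 and 9.80 CPM and Ifit3 at 52.4 and 6.34 CPM, while Irf9 (85.5 and 80.1 CPM), Oas2 (66.1 and 62.7 CPM) and Ifi207 (259 and 289 CPM) had ratios of 0.938, 0.948 and 1.11.

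Cluster 11 kept Siglec1, at 23.8 CPM in control and 38.5 CPM after DPCP (ratio 1.62, 1.10 to 2.38), and Oas2 (72.2 and 102.2 CPM) and Herc6 (74.5 and 95.5 CPM) were next highest. Its lowest ratios were those of Phf11b with 75.1 and 24.3 CPM (0.323), Ifit3 with 30.8 and 10.9 CPM and Oas3 with 56.2 and 20.9 CPM. Cluster 3 had its highest ratio at Oas2, with 28.5 and 62.1 CPM (2.18, 1.71 to 2.76), then Herc6 (40.3 and 59.4 CPM) and Trim30a (167 and 186 CPM). Its lowest were Ifit3, Ifit2, both with 3 UMIs after DPCP, and Ifi211 (29.1 and 12.3 CPM). In cluster 15, Irf7 had 111 and 36.8 CPM (0.330), Ifi211 99.1 and 34.2 CPM and Ifi203 99.1 and 35.5 CPM, while Herc6, Ifi35 and Trim30a had ratios from 0.999 to 1.05. Cluster 2 had Dhx58 at 12.8 and 25.9 CPM (2.02, 1.26 to 3.10), with Ifit1 and Oas2 next, and Ifit3, Phf11b and Oasl1 had its lowest ratios, from 0.522 to 0.677.

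Langerhans cell-like cells numbered 56 in control and 124 after DPCP. Of their 5 PYHIN genes with at least 50 UMIs, 3 were higher after DPCP and 2 lower. Ifi204 was at 21.5 CPM in control and 139 CPM after DPCP (ratio 6.46, 3.78 to 12). Ifi211 had 16.9 and 93.5 CPM (5.54, 3.02 to 11.3), and Ifi35, a gene outside that family, 10.7 and 62.1 CPM (5.78, 2.72 to 14.7). Each of these rested on 14 or fewer control UMIs. Ifi207, the other PYHIN gene that was higher, had 121 and 324 CPM. Ifi27l2a was lower, at 296 and 91.3 CPM (ratio 0.308, 0.249 to 0.381), and so were the PYHIN genes Ifi203 (177 and 87.5 CPM) and Ifi209 (32.2 and 16.8 CPM). The class was also broadly shifted, with 25.3% of all genes higher. Its median of 0.58 was 0.20 when each cell was gated on its own markers and 0.14 over the 10 genes with at least 200 UMIs.

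In neutrophil-like cells some genes were lower and others higher after DPCP. Ifi27l2a was at 1066 CPM in control and 257 CPM after DPCP (ratio 0.241, 0.215 to 0.271), Slfn5 at 312 and 90.5 CPM, and Ifit3b at 38.2 and 10.8 CPM. Herc6 was at 17.4 and 62.2 CPM (3.58, 1.53 to 11.1), Isg20 at 17.4 and 51.8 CPM (2.99, 1.28 to 9.21) and Ifi207 at 24.3 and 60.6 CPM (2.49, 1.21 to 6.21), each from 7 or fewer control UMIs. Phf11a and Phf11d had no UMI in control, and no ratio is given because the DPCP levels of 1.72 and 3.22 CPM were under the level that 3 control UMIs would give. Different clusters held this class in the groups: 105 of 108 control cells were in cluster 1, while the DPCP cells were spread over clusters 0, 1, 6, 8 and 10. Within cluster 1 alone the median log2 ratio was 0.0776. There Trim30a had 667 and 1058 CPM, Oasl2 581 and 684 CPM, and Ifi27l2a 1104 and 393 CPM. With TMM scaling of the class totals the median of the whole class was 0.22, with 9 genes higher and 7 lower, and the share of all genes was not counted.

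Other classes had a few genes apart from the rest. In mature dendritic cell-like cells Ddx58, which encodes the RNA sensor RIG-I, was at 18 CPM in control and 79.4 CPM after DPCP (ratio 4.42, 2.51 to 8.48), Trim30a at 67.8 and 137 CPM (2.02) and Xaf1 at 18 and 27.3 CPM. Phf11a (47.0 and 7.80 CPM), Phf11b (92.7 and 27.3 CPM) and Ifi27l2a (318 and 179 CPM) had the lowest ratios. Type 2-like dendritic cells had Ifi44 at 26.3 and 3.17 CPM (0.120, 0.0384 to 0.288), Ifit3b at 9.86 and 1.27 CPM and Ifi213 at 59.4 and 19.6 CPM. Their highest ratios were those of Oas2 at 28.8 and 70.9 CPM (2.47, 1.91 to 3.18), Isg20 at 8.63 and 17.1 CPM and Ifi207 at 117 and 203 CPM.

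In both T cell classes Oasl2 was among the highest ratios, at 32.5 and 53.4 CPM (1.64) in T cell-like cells and 48.8 and 108 CPM (2.22, 1.77 to 2.81) in epidermal gamma-delta T cell-like cells. Ifi207 (26.3 and 47.6 CPM) and Ifi204 (33.8 and 48.8 CPM) were the other 2 in T cell-like cells, and Phf11b (55.0 and 19.7 CPM), Irf7 (47.5 and 18.6 CPM) and Ifi213 (55.0 and 27.3 CPM) had the lowest ratios. In the epidermal class Irf9 (43.1 and 73.2 CPM) and Ifit1 (12.3 and 19.2 CPM) followed Oasl2. Ifi27l2a was at 916 and 214 CPM (0.234, 0.213 to 0.257), Phf11d at 23.2 and 3.33 CPM and Phf11b at 31.7 and 8.87 CPM. Oasl2 was abundant in neutrophil-like cells, and how far neutrophil RNA in these classes, given with its shares further up, contributed to it was not tested.

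Cells were thinned to 1000 UMIs each to see whether a few cells or most cells of a class held the signal. In control cluster 5, 702 cells were deep enough and 12 were left out, and the cells had a median of 14 UMIs of the set. At least 1 such UMI was found in 99.4% of them and at least 5 in 89.6% (87.1 to 91.8%). The tenth of cells with the most held 21.4% of these UMIs. After DPCP, 51.0% (42.8 to 59.1%) of 153 cells had at least 5, and the median was 5.

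Cluster 5 had the largest share of such cells in control, at 89.6%. Cells with at least 5 UMIs of the set made up 68.1% of control and 39.5% of DPCP monocyte-like cells, 48.0% and 39.8% of cluster 11, and 44.1% and 24.2% of neutrophil-like cells. They made up 14.6% and 12.7% of T cell-like, 14.3% and 15.3% of Langerhans cell-like cells, and 9.68% and 10.5% of the epidermal T cells. The order of the groups depended on depth in some classes: thinned to 2000 UMIs, the shares were 38.8% in control and 44.5% after DPCP in T cell-like cells, 45.9% and 54.5% in cluster 2, and 59.1% and 64.8% in type 2-like dendritic cells. At 1000 UMIs they had been 16.7% and 14.1% in cluster 2 and 31.5% and 27.7% in type 2-like dendritic cells. For single genes, Ifi44 UMIs were found in 51.8% of control and 8.39% of DPCP cluster 5 cells before thinning, although DPCP cells were deeper (median 7898.5 and 10012 UMIs). Siglec1 UMIs were found in 57.1% and 25.8%, and after thinning in 16.7% and 3.27%. In T cell-like cells Siglec1 had 1.26% in control before thinning, and after thinning 0 of 158 cells had a UMI.

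**Figure D5:**
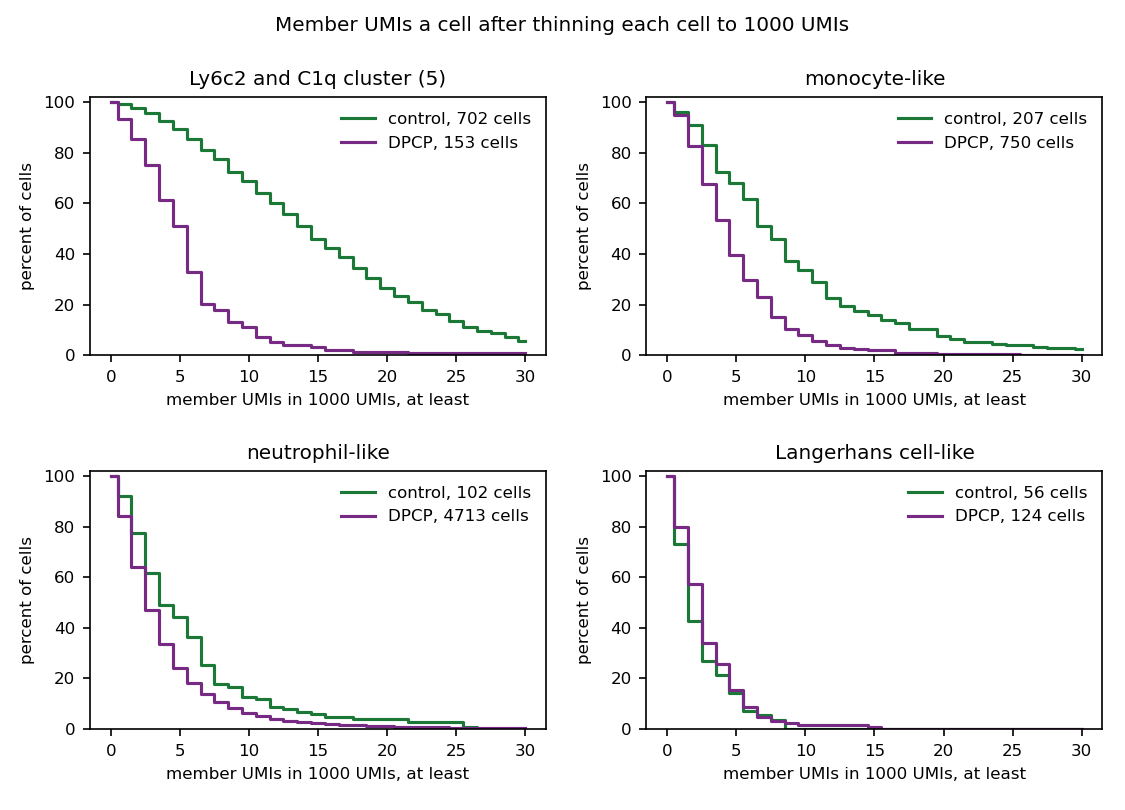
Share of cells (percent) with at least a given number of UMIs of the interferon stimulated genes, after thinning every cell to 1000 UMIs, for 4 classes in control and DPCP. The control curve of cluster 5 lies to the right of the others: 89.6% of its cells have at least 5 such UMIs, against 51.0% after DPCP.

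The rest of the interferon pathway was followed with a list of 47 names, of which 45 matched a gene. No UMI was found in kept cells for 9 of them: the interferon genes Ifnb1, Ifna1, Ifna2, Ifna4, Ifna5, Ifne, Ifnl2 and Ifnl3, and Trex1. A count of 0 allows up to 0.0579 CPM in control and 0.0565 CPM after DPCP over all cells. Ifnk had 8 UMIs in control and 2 after DPCP. Ifng, the type II interferon gene, had 67 and 61, of which 52 and 43 lay in T cell-like cells.

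In cluster 5, 33 genes of this list had at least 50 UMIs, of which 3 were higher and 5 lower after DPCP, with a median log2 ratio of -0.18. Of all genes 11.7% were higher and 10.4% lower, so the counts of the list were near the background. The receptor genes Ifnar1 (109 and 116 CPM) and Ifnar2 (241 and 248 CPM) had ratios of 1.06 and 1.03. The endosomal RNA sensor gene Tlr7 was at 92.3 and 26.2 CPM (0.284, 0.204 to 0.386). Irf4 (69.2 and 25 CPM), Irf5 (209 and 130 CPM) and Tlr9 (7.20 and 2.98 CPM) were also lower. Socs3, an inhibitor of cytokine signalling, was at 14.6 and 108 CPM (7.45, 5.77 to 9.67), Tmem173, which encodes STING, at 58.5 and 113 CPM, and Stat3 at 162 and 267 CPM. These are RNA levels, and what part the receptors had in the lower levels of the set was not tested.

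Monocyte-like cells had 2 higher and 4 lower of 30 genes of this list (10.1% of all genes higher and 11.1% lower), with a median of -0.18. In Langerhans cell-like cells, where the filter on UMIs favoured genes higher after DPCP, 9 of 23 were higher and 1 lower. Of all genes 25.3% were higher and 17.7% lower there, and the median of the list was 0.41. Among the higher genes of the list were Ifnar1 (39.9 and 162 CPM, 4.06-fold, 2.72 to 6.32), Ifnar2 (70.6 and 206 CPM) and Ifngr2 (70.6 and 184 CPM). Tyk2 was the gene that was lower (86 and 42.7 CPM).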

How the data were processed

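Immune cells of 2 tagged mouse skin samples shared 1 library, and the deposited matrix holds raw UMI counts per gene and cell, which the authors did not normalize. Per the file headers the counts come from Cell Ranger 7.0.0; the submitters' processing notes list Cell Ranger 6.1.1, Seurat 4.0.1 and mm10. The condition of a barcode suffix follows the row order of the deposited aggregation table. Gene positions come from GENCODE M21. The genes of the set, the lists and the classes were chosen with earlier results of these data known.

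Barcodes were kept from 200 genes up, with no more than 10% mitochondrial UMIs. Scrublet marked 3 control and 0 DPCP cells, so the caller did not work here; those 3 were removed. Clustering (scanpy 1.11.5, leidenalg 0.10.2, resolution 1) used log-normalised counts of 2000 variable genes, the set left out, with 30 principal components and 15 neighbours. To be named, a cluster needed 3 or more markers of a list, each seen in 10% of its cells and at 2-fold its level elsewhere. Clusters with S100a8 and S100a9 above 20% of the neutrophil-like level, or with few UMIs, stayed unnamed. Counts were summed per class and condition. Comparisons needed 50 cells in each condition and 50 UMIs a gene, which for DPCP ratios were summed over both conditions. Cluster 14, with 62 control and 167 DPCP cells and a median of 852 UMIs, was led by haemoglobin genes such as Hbb-bs. It was left out of the compared classes, but its cells stayed in the totals. Ratios have exact conditional binomial intervals, levels exact Poisson intervals and shares Clopper-Pearson intervals, all at 95%. Only the ratios and their intervals were checked on simulated data. Where a gene had a count of 0, the limit is that of 3 counts. TMM factors, an alternative scaling, came from edgeR 4.0.16 in R 4.3.3. Other versions were numpy 2.4.6, Python 3.11.15, scikit-learn 1.9.0 and scipy 1.17.1.

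Genes given in full are the 12 with most UMIs, the 3 highest and 3 lowest DPCP ratios of each class and the 3 highest of each class in control. Promoters printed are the 4 with the most copies of the repeat, ties broken by UMIs. Beyond this rule, examples of each role and of the pathway list were chosen after their values were seen. Values of 1 item are not reported here.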

Additional observations from a re-analysis of the deposited data

How the results depend on the processing

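Medians of the log2 ratios of the set were recomputed under other settings, some of them chosen after seeing the data. Of the values by class, 196 in control and 170 of the DPCP ratios stayed within the spread of their main value, and 43 and 20 did not. In cluster 5 the control median ranged from 1.47 to 2.2 and the ratio from -1.69 to -1.09; in monocyte-like cells from -0.0168 to 1.64 and from -1.53 to -0.29. Causes were not tested. Counts of genes of the set under these settings stand without the share of all genes, which was not counted there. In control, leaving cluster 5 out of the reference gave 1.17 in monocyte-like cells, 0.91 in cluster 11, 0.33 and 0.32 in dendritic cell types 2 and 1, 0.26 in innate lymphoid cells, -0.0673 in cluster 15, -0.25 in cluster 3, -0.35 in epidermal T cells, -0.48 in T cells, -0.85 in cluster 2 and -0.95 in mature dendritic cells. Clustering without other interferon-inducible families gave 1.47 in cluster 5, 1.64 in monocyte-like cells, -0.20 in cluster 15 and -0.49 in T cells in control, and ratios of -1.53 in monocyte-like and -0.59 in T cells. Gating single cells gave -0.0168 in monocyte-like cells, -0.41 in type 1 dendritic cells, -0.87 in innate lymphoid cells, -1.61 in T cells and -1.74 in epidermal T cells, and ratios of -0.29 in monocyte-like cells, 0.0786 in type 2 dendritic cells and 0.34 in T cells. Leiden resolution 2 gave 1.27 in monocyte-like cells, 0.025 in type 2 and -0.71 in type 1 dendritic cells and -0.18 in cluster 15, and ratios of -1.38 in monocyte-like cells, -0.84 in type 2 dendritic cells and -0.31 in cluster 11; resolution 0.5 gave 0.40 in monocyte-like cells. No doublet removal gave 0.34 in monocyte-like cells and 0.49 in cluster 11, and leaving out the highest doublet scores -1.22 in epidermal T cells. With no filter on cells, control values were 0.39 in monocyte-like cells, -0.56 in cluster 3 and -0.62 in type 1 dendritic cells, and ratios -0.64 in monocyte-like cells and -0.44 in type 2 dendritic cells. Clustering with the set gave 0.19 in monocyte-like cells and -0.19 in cluster 15, and ratios of -0.62 in monocyte-like cells and -0.0591 in type 2 dendritic cells. TMM gave -0.51 in cluster 3 (18 genes lower in place of 33), -0.53 in innate lymphoid cells and -1.26 in epidermal T cells, and a ratio of 0.22 in neutrophils, where cluster 1 alone gave 0.0776. Mean CPM over cells gave -0.39 in type 1 dendritic cells, -0.94 in innate lymphoid cells and -1.50 in epidermal T cells, and ratios of -0.32 in cluster 11 and 0.16 in epidermal T cells. Without the 5% of cells with most UMIs of the set, control values were -0.37 in type 1 dendritic cells, -0.72 in innate lymphoid cells, -1.59 in epidermal T cells and -2.04 in mature dendritic cells, and ratios -0.43 in cluster 11, 0.32 in mature dendritic cells and 0.38 in epidermal T cells. With at least 200 UMIs a gene, cluster 15 had a ratio of -0.0796. Cells of cluster 5 with at least 5 UMIs of the set were 98.2% in control and 83.7% after DPCP when thinned to 2000 UMIs, and 78.2% and 33.3% without the 3 most abundant genes. GAAA spacings of 1 and 3 bases gave 23.3% and 18.6% of windows. Under some settings a class had too few cells or no match and gave no value, namely resolution 0.5 for clusters 2, 3, 11 and 15 and type 1 dendritic cells, gating of single cells for the numbered clusters, clustering without other interferon families for cluster 11, the stricter cell filter for the ratio in cluster 2, 80% own tag for that in T cells, the doublet scores for that in Langerhans cells, and resolution 2 and no doublet removal for that in cluster 5. Genes with under 50 UMIs in a class were not compared at this depth.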

Other observations

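Cluster 19, found after DPCP only with 129 cells and led by Mmp12, Pdpn, Gpnmb and Cxcl9, had a sum of the set of 4225 CPM, close to that of DPCP monocyte-like cells at 4484 CPM. The UMIs lay in fewer cells. After thinning to 1000 UMIs, 28.1% of its cells had at least 5 UMIs of the set, and the tenth of cells with the most held 42.0% of them, against 27.3% in DPCP monocyte-like cells. Isg15 stood at 265 CPM there. Cluster 19 passed for no class of the marker lists.

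Cluster 13, with 247 DPCP and 3 control cells, carried monocyte markers together with neutrophil RNA at 34.5% of the neutrophil-like level of S100a8 and S100a9 and was left unnamed. Its sum was 3840 CPM after DPCP.

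Plasmacytoid dendritic cell-like cells, 21 in control and 50 after DPCP, were too few for the comparison. Their Bst2 level was 1537 CPM (1385 to 1701) in control and 1544 CPM (1444 to 1649) after DPCP, while Ifi27l2a was at 851 and 486 CPM.

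The neutrophil-like clusters of the DPCP sample differed among themselves. Cluster 1, which also held nearly all control neutrophil-like cells, had Oasl2 at 684 CPM and Isg15 at 116 CPM. Cluster 6 (Thbs1, Ptgs2, Cxcl2) had 159 and 237 CPM of these genes. Cluster 0 (Il1rn, Ccl3, Acod1) had Rsad2 at 198 CPM, against 75.5 CPM in cluster 6. These clusters were chosen on the same cells and their differences were not tested.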
